A study of Mus musculus with 4 samples.

Results

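The Ifi200 genes of mouse chromosome 1 and their relative Aim2 were followed in dendritic cells (DCs) and CD3+ T cells taken from MC38 tumours, a transplantable mouse colon carcinoma. The members were chosen by gene symbol: Ifi203, Ifi204, Ifi206, Ifi207, Ifi209, Ifi211, Ifi213, Mndal and Aim2. All 9 were listed in both tables, out of 21959 genes listed in each. The study asked how a radiotherapy-activated prodrug, O-IMDQ given with X-rays, affects immune cells in the tumour. The groups were DCs from mice given X-Ray+O-IMDQ, DCs from mice given PBS, CD3+ T cells from mice given X-Ray+O-IMDQ and CD3+ T cells from mice given PBS, with 1 library per group. All groups came from MC38 tumour-bearing mice, and the cells were taken out 72 h after treatment number 2. The labels describe no strain, age, sorting gate or pooling, and they have no group with X-rays alone or O-IMDQ alone, so the parts of the treatment cannot be told apart.

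The Ifi200 genes encode PYHIN proteins, which join a pyrin domain, a protein interaction module, to a HIN domain that binds DNA. Many of them are induced by type I interferon, and they include sensors of DNA in the cytosol and regulators in the nucleus. Aim2 binds double-stranded DNA in the cytosol and assembles an inflammasome with the adaptor ASC, the product of Pycard, and caspase-1. Genes induced by type I interferon commonly carry an interferon-stimulated response element (ISRE) in their promoter.

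Total counts were 14056428 in treated DCs, 23797357 in PBS DCs, 18463944 in treated T cells and 18649824 in PBS T cells. With 1 library per group tied to a sample, no replicate error was estimated, so each comparison is between libraries and carries no p-value. Ratios are of counts scaled with TMM within a cell type, with an exact conditional binomial 95% interval that covers counting error only and takes each read as a separate molecule, although no molecular identifiers are described to remove PCR copies. A gene was tested with at least 20 counts in either library. It was called higher or lower at 2-fold or more when its interval excluded a log2 ratio of 0. Levels are in FPKM, counts scaled by gene length and library total, so that genes of different length can be compared. In bulk libraries, fewer cells of a type and less RNA per cell cannot be told apart.

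The DC and T cell labels were read against marker genes. In the T cell libraries the summed level of 10 listed T cell markers was 16113 CPM with treatment and 14784 CPM with PBS, while in DC libraries it was 95.7 CPM with treatment and 114 CPM with PBS. In the DC libraries 6 of the 10 were at 0 with treatment and 3 with PBS, and Cd3e was at 0 in both. Cd3d, another subunit of the T cell receptor complex, had 812 counts in treated DCs and 434 in PBS DCs, while Cd3g had 1 count in treated DCs and 576 in PBS DCs. Macrophage and DC markers also had counts in the T cell libraries, with differences in both directions. Fcgr1 had 341 counts in treated T cells and 7 in PBS T cells, and Cd209a 219 and 7. Adgre1 had 0 counts in treated T cells and 334 in PBS T cells, and Ms4a7 1 and 310. The 9 conventional DC markers summed to 14080 CPM in treated DCs and 81794 CPM in PBS DCs, and the highest of them, the MHC class II gene H2-Ab1, had 5892 CPM in treated DCs and 49192 CPM in PBS DCs. Flt3, a growth factor receptor of conventional DCs, had 4.91 CPM in treated DCs and 0.67 CPM in PBS DCs. The transcription factor gene Zbtb46 had 4.06 CPM in treated DCs and 0.38 CPM in PBS DCs. The 12 macrophage markers summed to 2242 CPM in treated DCs and 8557 CPM in PBS DCs, with 7 lower, 0 higher and none at 0. The 7 NK cell markers summed to 120 CPM in treated DCs and 10.3 CPM in PBS DCs. Nearly all of it lay in Gzma, Klre1 and Eomes, with 919, 637 and 135 counts in treated DCs and 108, 137 and 0 in PBS DCs. Ncr1, Klra8 and Prf1 were at 0 in both DC libraries, and Klrb1c had 1 count in treated DCs and 0 in PBS DCs. The share of all tested genes called is large: in DCs 30.2% were called higher and 41.8% lower, and in T cells 18.3% higher and 25.4% lower. In DCs the log2 ratio also varied with gene length, as medians show over 10 equal groups of genes ordered by length. The median was -0.47 in group 1 of the shortest genes, -1.30 in group 2, which holds Ifi211, and -1.12 in group 3, which holds Ifi206. It was -0.86 in group 4, which holds Ifi204, Ifi207, Ifi209, Mndal and Aim2, -0.07 in group 8, which holds Ifi203 and Ifi213, and 0.62 in group 10 of the longest genes. In T cells the group medians lay between -0.44 and 0.04. The part of cell composition and gene length in the results was not tested.

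Promoter sequences are shown first, because most members carry the same short element just before their start. They were taken from RefSeq promoters on GRCm38.p6, a different build from the counts. Of the 9 members, 8 had an entry in this table, and the Ifi204 promoter was not analysed here. Each line gives the 60 bases nearest the start, or round the element where it lies further away, 5′ to 3′ on the gene's strand. Capitals mark the match to the ISRE-type motif, which is AAANNGAAA with a G before it, or for Ifi209 the match without that G. Aim2 has no capitals because neither form was found in its window.
Ifi203, chr1:173942493-173942552, minus strand: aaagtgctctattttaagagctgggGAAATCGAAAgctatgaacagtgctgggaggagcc
Mndal, chr1:173880188-173880247, minus strand: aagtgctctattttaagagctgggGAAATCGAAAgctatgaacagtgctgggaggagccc
Ifi206, chr1:173491319-173491378, minus strand: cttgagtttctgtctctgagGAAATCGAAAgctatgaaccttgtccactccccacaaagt
Ifi213, chr1:173599306-173599365, minus strand: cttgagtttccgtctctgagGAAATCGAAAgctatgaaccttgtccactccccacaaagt
Ifi207, chr1:173741810-173741869, minus strand: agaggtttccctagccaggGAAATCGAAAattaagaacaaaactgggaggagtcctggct
Ifi211, chr1:173913047-173913106, minus strand: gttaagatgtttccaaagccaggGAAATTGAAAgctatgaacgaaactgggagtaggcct
Ifi209, chr1:173630761-173630820, plus strand: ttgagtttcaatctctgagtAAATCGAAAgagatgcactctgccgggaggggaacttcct
Aim2, chr1:173420544-173420603, plus strand: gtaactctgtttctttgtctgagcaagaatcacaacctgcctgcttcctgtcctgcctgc

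The ISRE-type motif, searched on both strands over 300-base windows, was found for 6 of the 8 members with an entry. It was found for 3.99% of the 27025 genes with an entry, or in 3.44% of 32851 promoters. Among interferon-stimulated genes outside the cluster that had an entry, it was found for 16 of 30. Without the G, AAANNGAAA was found, overlapping each of those matches, for 7 of the 8 members, with Ifi209 added. It was found for 12.1% of all genes with an entry and in 10.6% of all promoters. In the printed promoters the capitals lie between -78 and -26 from the start. The GAS-type motif TTCNNNGAA, the form known from genes induced by interferon gamma, was found for 0 of the 8 members. It was found for 9.55% of all genes with an entry and in 8.30% of all promoters, so 0 of 8 does not set the members apart. A longer form, GAAATCGAAAG, which overlaps the ISRE-type match and was chosen after the sequences were seen, was present in 6 promoters of the whole table, those of Ifi203, Mndal, Ifi206 and Ifi213 and of the neighbouring Ifi208 and Ifi214. These matches are letters in a window and not measured binding, and promoters of duplicated genes are not independent of each other.

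The promoters of some members are near copies. Over 50 bases aligned on the element, Ifi203 and Mndal were identical at all 50 positions, and Ifi206 and Ifi213 at 49. Ifi207 and Ifi211 were identical at 41 positions. Over all 21 pairs of members with the element, the lowest number was 24 and the median 33. The 1 pair of members identical over these 50 bases, Ifi203 and Mndal, had different ratios. Each has 2 promoters with an entry, and beyond this window the promoters differ. The other Mndal promoter has an ISRE-type match of its own, and the other Ifi203 promoter has none. Whether the element sets the ratio was not tested. Ifi203 had a log2 ratio of 1.97 in DCs and 1.29 in T cells, while Mndal had 0.79 and 0.88.

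**Figure D1:**
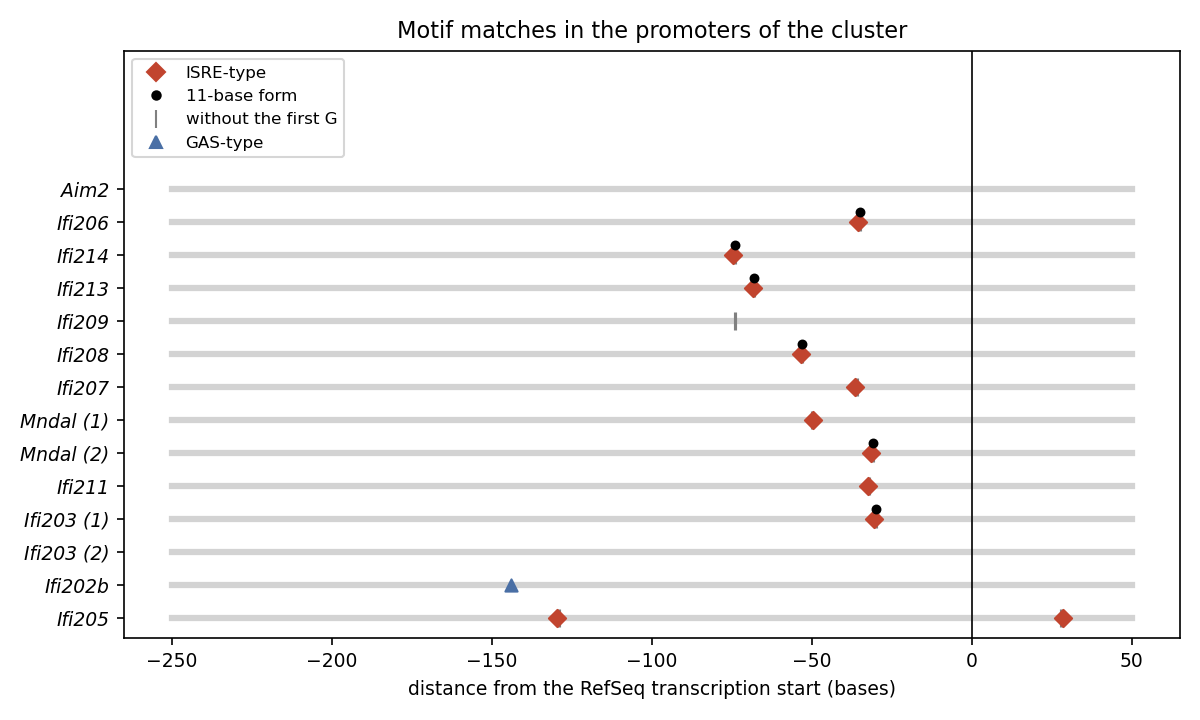
Motif matches in RefSeq promoters of the cluster, by distance from the transcription start in bases (x axis) and by gene in chromosome order (y axis, numbers in brackets for a gene with more than 1 promoter). Diamonds are ISRE-type matches, dots the 11-base form, bars matches without the first G, and triangles GAS-type matches. Aim2 and 1 of the 2 Ifi203 promoters have none.

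In DCs, the comparison addresses how the treatment affected this family in antigen-presenting cells of the tumour. Of the 9 members, 5 were higher in the treated DC library, 0 were lower and 4 were neither, where 30.2% of all tested genes were called higher and 41.8% lower. The 5 were Ifi203, Ifi204, Ifi206, Ifi207 and Ifi213. The 4 that were not called were Ifi209, Ifi211, Mndal and Aim2. All 9 members were tested, and their median log2 ratio was 1.96, with Ifi206 at its bound, beside -0.36 over all 10316 genes tested. Counts summed over the members were 12308 in treated DCs and 7608 in PBS DCs, a 2.85-fold higher scaled level (interval 2.77 to 2.94). Summed over the members, the level was 236 FPKM in treated DCs and 96.2 FPKM in PBS DCs.

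In T cells, the comparison addresses the same question in lymphocytes of the tumour, with libraries that the DC comparison does not use. Of 8 members tested in T cells, 4 were called higher with treatment, 0 lower and 4 neither, where 18.3% of all tested genes were called higher and 25.4% lower. The 4 were Ifi203, Ifi204, Ifi206 and Ifi213. Ifi207 had 0 counts in both T cell libraries and was not tested. The median log2 ratio of the 8 was 1.08, beside -0.07 over all 11058 genes tested. Summed over the members, 13019 counts were found in treated T cells and 5898 in PBS T cells, a 2.19-fold higher scaled level (interval 2.12 to 2.26). The summed level was 171 FPKM in treated T cells and 79.6 FPKM in PBS T cells.

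**Figure D2:**
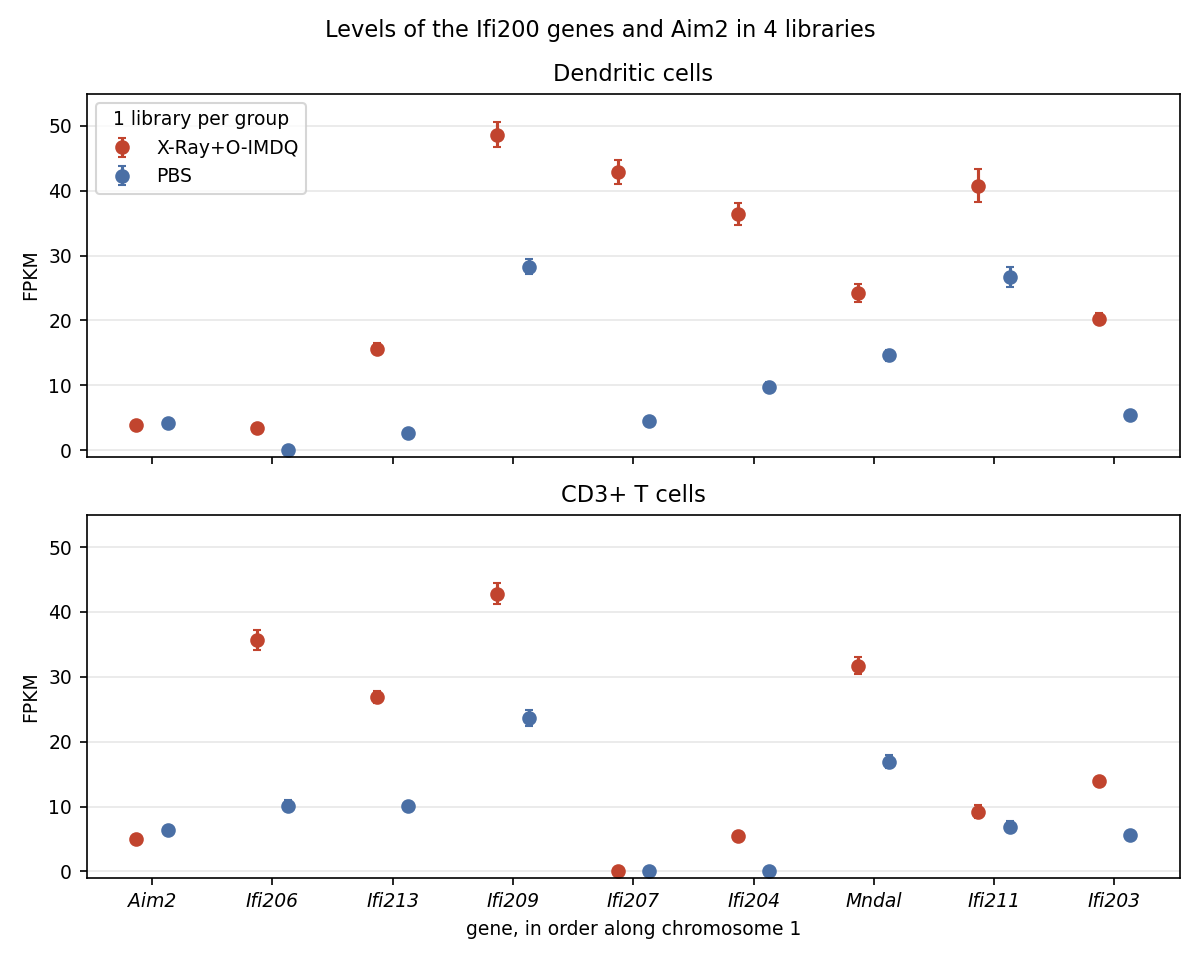
FPKM (y axis, linear) of the 9 members in order along chromosome 1 (x axis), in DCs above and CD3+ T cells below, with treated libraries in red and PBS libraries in blue; bars are exact Poisson 95% intervals of the count. Treated libraries lie above PBS for Ifi203, Ifi204, Ifi206, Ifi209, Ifi211, Ifi213 and Mndal in both cell types and for Ifi207 in DCs, and below PBS for Aim2.

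The DNA sensors Aim2 and Ifi204 had different ratios. Aim2 (ENSMUSG00000037860, chromosome 1, 173178445 to 173293606 on GRCm39), the sensor of the AIM2 inflammasome, had 193 counts (3.92 FPKM) in treated DCs and 355 counts (4.26 FPKM) in PBS DCs. Its log2 ratio in DCs was -0.06, with an interval from -0.32 to 0.20 that includes 0. In T cells Aim2 had 321 counts (4.97 FPKM) with treatment and 413 counts (6.33 FPKM) with PBS, a log2 ratio of -0.38 (interval -0.59 to -0.16). Aim2 was thus within 2-fold in both cell types, and it was the member with the lowest ratio in each. After centring on the median of all genes, its DC log2 ratio was 0.30, and after centring within the length groups 0.80, a change of sign, and it was not called in either setting. Its listed span overlaps that of Cadm3 on the other strand, which had 0 counts in all 4 libraries.

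Ifi204 (ENSMUSG00000073489, chromosome 1, 173574859 to 173594509) encodes p204, which is often set beside human IFI16 as a DNA sensor acting through STING. In DCs it had 1822 counts (36.4 FPKM) with treatment and 827 counts (9.76 FPKM) with PBS, a 3.89-fold higher level (interval 3.58 to 4.23). In T cells it had 355 counts (5.40 FPKM) with treatment and 2 counts (0.0301 FPKM) with PBS. The T cell ratio was 176-fold, with an interval from 48.3-fold to 1458-fold that reflects the 2 counts. Ifi204 was therefore called higher in both cell types, at a level in treated T cells below that in PBS DCs.

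Ifi207 (ENSMUSG00000073490, chromosome 1, 173550993 to 173569313), a PYHIN gene next to Ifi204, had the largest ratio in DCs among the members with counts in both libraries. It had 2061 counts (42.8 FPKM) in treated DCs and 370 counts (4.54 FPKM) in PBS DCs, a 9.83-fold higher level (interval 8.79 to 11.01). Its place by FPKM among the 9 members was 2 in treated DCs and 6 in PBS DCs. In T cells it was at 0 in both libraries, and 0 counts allow up to 3 counts, or 0.162 CPM in treated T cells and 0.161 CPM in PBS T cells.

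Ifi213 (ENSMUSG00000073491, chromosome 1, 173393849 to 173426840) was called higher in both cell types. It had 1507 counts (15.7 FPKM) in treated DCs and 423 counts (2.60 FPKM) in PBS DCs, a 6.29-fold higher level (interval 5.64 to 7.02). In T cells it had 3398 counts (26.9 FPKM) with treatment and 1282 counts (10.05 FPKM) with PBS, a 2.63-fold higher level (interval 2.46 to 2.80). It had the most counts of the members in treated T cells, while its FPKM there was below those of Ifi209, Ifi206 and Mndal because of its greater length.

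Ifi203 (ENSMUSG00000039997, chromosome 1, 173747973 to 173770238), an interferon-inducible member, was likewise called higher in both cell types. In DCs it had 1913 counts (20.3 FPKM) with treatment and 860 counts (5.39 FPKM) with PBS, a 3.92-fold higher level (interval 3.62 to 4.26). Its T cell libraries held 1724 counts (13.9 FPKM) with treatment and 699 counts (5.59 FPKM) with PBS, a 2.44-fold higher level (interval 2.24 to 2.67). Its PBS levels in the 2 cell types were close, and its treated level was the higher one in DCs.

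Ifi206 (ENSMUSG00000037849, chromosome 1, 173296051 to 173318607) had its highest levels in the T cell libraries. There it had 2013 counts (35.7 FPKM) with treatment and 578 counts (10.1 FPKM) with PBS, a 3.45-fold higher level (interval 3.15 to 3.79). In DCs it had 144 counts (3.35 FPKM) with treatment and 0 counts with PBS. With the PBS library set to 3 counts the ratio was 84.7-fold, and the lower limit of its counting interval put the level at least 68.0-fold higher with treatment. Other genes had such counts in the DC libraries: of 6475 genes with at least 100 counts in treated DCs, 213 had 0 counts in PBS DCs, and of 7856 in the reverse direction, 942 did. Without genes under 20 counts in either DC library, which leaves Ifi206 out, the median of the members was 1.40.

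Ifi209, Ifi211 and Mndal had the highest PBS levels among the 9 members in DCs and were all within 2-fold. Ifi209 (ENSMUSG00000043263, chromosome 1, 173458483 to 173475494), the member with the highest FPKM in all 4 libraries, had 2425 counts (48.6 FPKM) in treated DCs and 2389 counts (28.3 FPKM) in PBS DCs. The T cell libraries held 2802 counts (42.8 FPKM) with treatment and 1562 counts (23.6 FPKM) with PBS. Its log2 ratios of 0.84 in DCs (interval 0.76 to 0.92) and 0.83 in T cells (interval 0.74 to 0.92) were nearly equal, and both intervals excluded 0.

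Mndal (ENSMUSG00000090272, chromosome 1, 173676692 to 173708447), an interferon-inducible nuclear protein reported to restrain cell growth, had 1220 counts (24.2 FPKM) in treated DCs and 1249 counts (14.6 FPKM) in PBS DCs. In T cells Mndal had 2104 counts (31.7 FPKM) with treatment and 1133 counts (16.9 FPKM) with PBS. The log2 ratios were 0.79 in DCs (interval 0.67 to 0.90) and 0.88 in T cells (interval 0.78 to 0.99). Ifi211 (ENSMUSG00000026536, chromosome 1, 173723911 to 173740612) had 1023 counts (40.8 FPKM) in treated DCs and 1135 counts (26.7 FPKM) in PBS DCs, a log2 ratio of 0.67 (interval 0.55 to 0.79). In T cells it had 302 counts (9.16 FPKM) with treatment and 229 counts (6.88 FPKM) with PBS, a log2 ratio of 0.39 (interval 0.13 to 0.64). In DCs these 3 genes were called higher in 3 other settings, each of which called 8 of 9 members higher. They were a 1.5-fold threshold, where 36% of all genes tested were higher, centring on the median of all genes, with 35.1%, and centring within the length groups, with 34.9%. At 4-fold, 3 members were higher in DCs, where 18.6% of all genes were, and 1 in T cells, where 9.07% were. Those were Ifi206, Ifi207 and Ifi213 in DCs and Ifi204 in T cells. At 1.5-fold 6 members were higher in T cells, with Ifi209 and Mndal added, where 27.1% of all genes were. When both libraries needed 20 counts or more, 4 were higher in DCs, where 32.9% of all genes were, and 3 in T cells, where 15.5% were.

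**Figure D3:**
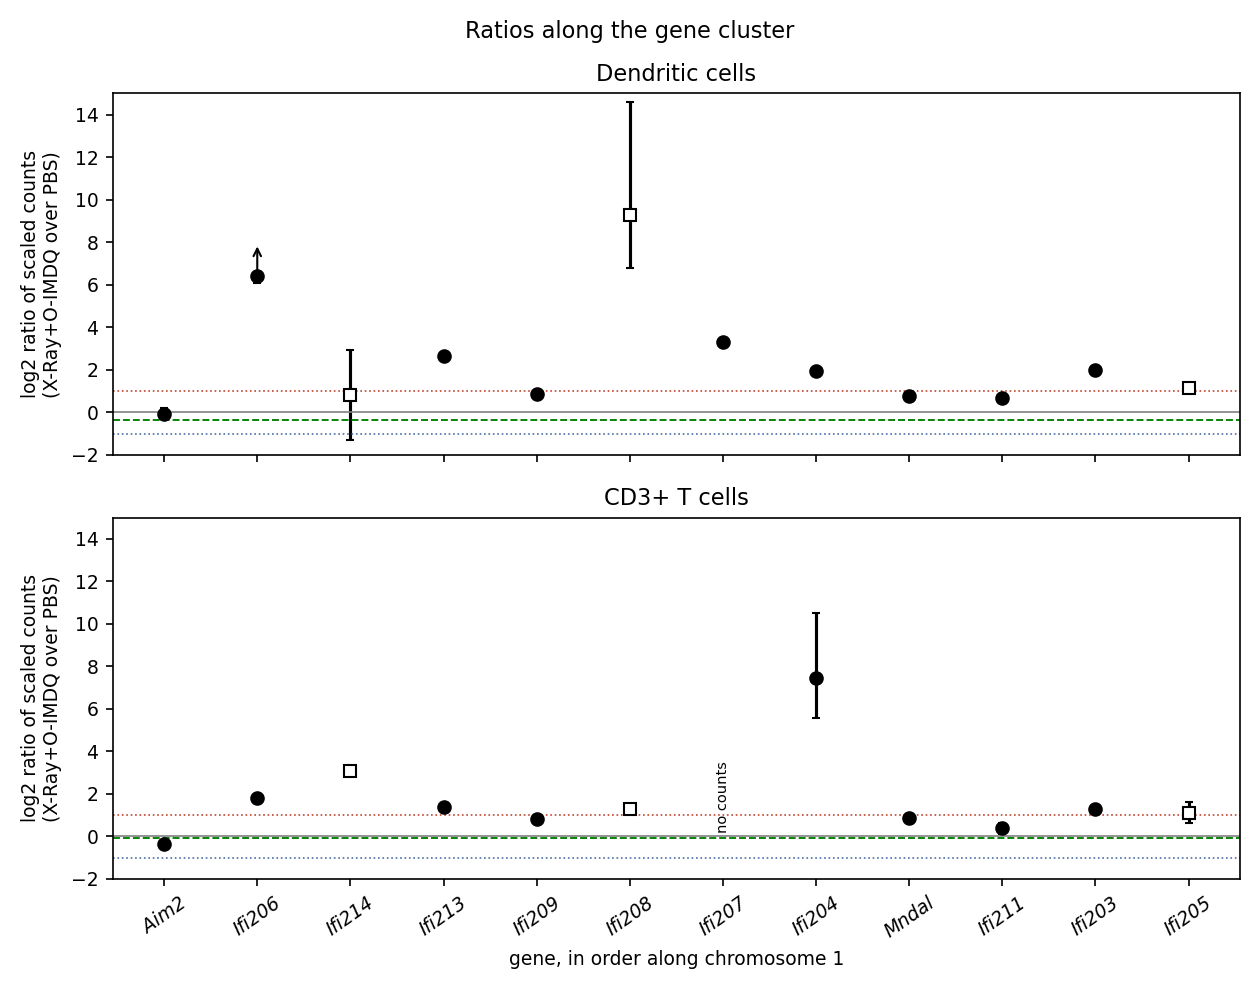
Log2 ratio of TMM-scaled counts, X-Ray+O-IMDQ over PBS (y axis), for PYHIN genes in chromosome order (x axis), in DCs above and T cells below; bars are 95% counting intervals, filled circles the 9 members, open squares other PYHIN genes, and the arrow a bound. Dotted lines mark 2-fold and the dashed line the median of all genes tested, -0.36 in DCs and -0.07 in T cells; Aim2 is the lowest point among the members in both panels.

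Some members had far higher levels in one cell type, given here as a description, since the tables were made separately. Ifi207 was at 42.8 FPKM in treated DCs and 0 in treated T cells. Ifi211 was 4.45-fold and Ifi204 6.74-fold higher in treated DCs than in treated T cells. In the other direction, Ifi206 was 10.6-fold higher in treated T cells than in treated DCs, and Ifi213 1.72-fold higher. Ifi203, Ifi209, Mndal and Aim2 were within 1.5-fold between treated T cells and treated DCs. By FPKM the order in treated DCs was Ifi209, Ifi207, Ifi211, Ifi204, Mndal, Ifi203, Ifi213, Aim2 and Ifi206, and the Poisson intervals overlapped between Ifi207 and Ifi211 and between Aim2 and Ifi206. In PBS DCs it was Ifi209, Ifi211, Mndal, Ifi204, Ifi203, Ifi207, Aim2, Ifi213 and Ifi206, with overlap between Ifi209 and Ifi211 and between Ifi207 and Aim2. In treated T cells the order was Ifi209, Ifi206, Mndal, Ifi213, Ifi203, Ifi211, Ifi204, Aim2 and Ifi207, and those of Ifi204 and Aim2 overlapped. In PBS T cells it was Ifi209, Mndal, Ifi206, Ifi213, Ifi211, Aim2, Ifi203, Ifi204 and Ifi207, with overlap between Ifi206 and Ifi213, between Ifi211 and Aim2 and between Aim2 and Ifi203.

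The change in log2 ratio between the cell types varied by member. It was -0.01 for Ifi209 and 0.09 for Mndal as T cells minus DCs, and their counting intervals in the 2 cell types overlapped. It was -0.68 for Ifi203 and -1.26 for Ifi213, whose intervals in the 2 cell types did not overlap and whose ratios were the larger in DCs. For Ifi204 it was 5.50, with intervals that did not overlap and the larger ratio in T cells, where PBS cells had 2 counts. For Ifi206 it was -4.62, with the DC ratio at its bound, and for Ifi211 and Aim2 it was -0.28 and -0.32, with intervals that overlapped. With 1 library per group tied to a sample, such a difference was not tested against replicate error.

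**Figure D4:**
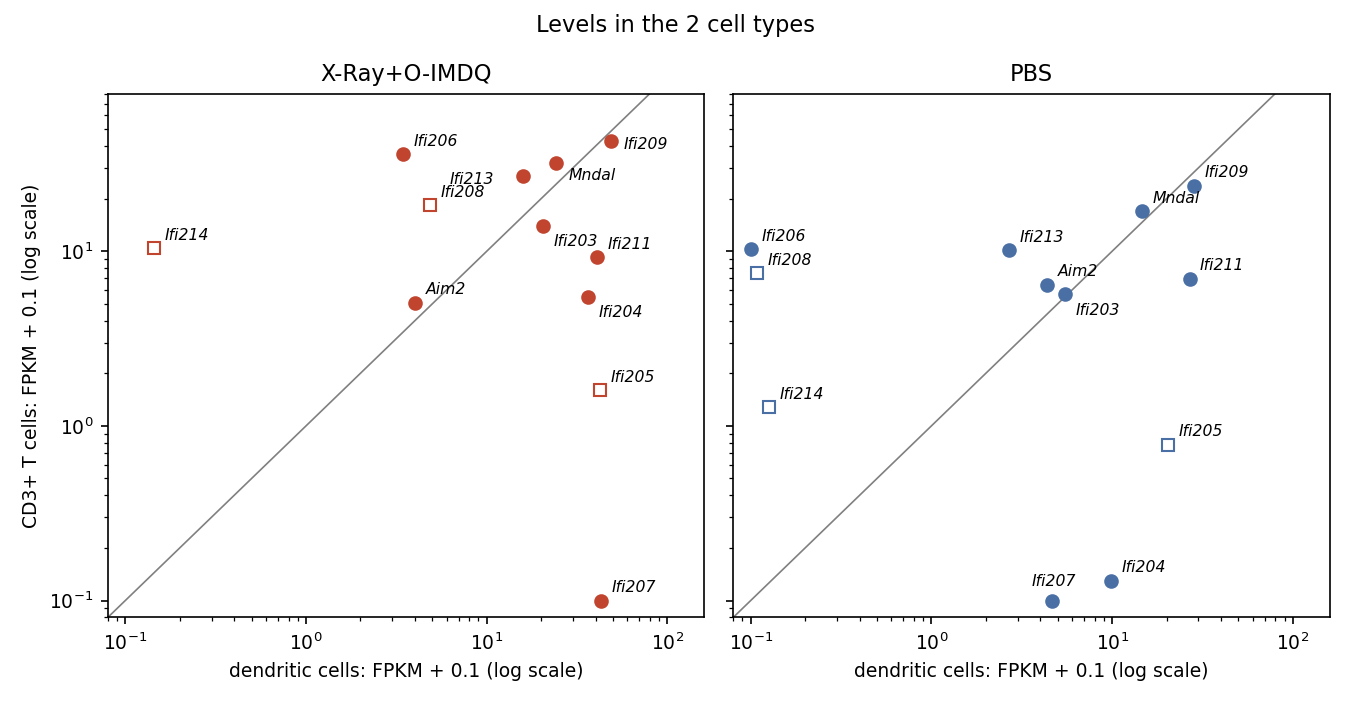
FPKM + 0.1 in T cells (y axis, log scale) against DCs (x axis, log scale) for PYHIN genes, with treated libraries on the left and PBS libraries on the right; filled circles are the 9 members, open squares other PYHIN genes, and the line marks equal levels. Ifi206, Ifi208 and Ifi214 lie on the T cell side, Ifi204, Ifi205, Ifi207 and Ifi211 on the DC side, and Ifi203, Ifi209, Mndal and Aim2 near the line.

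Of the other PYHIN genes fixed as a list, 4 of 10 were listed in the tables. Ifi205, a myeloid member closely related to Ifi211, had 2495 counts (42.5 FPKM) in treated DCs and 2010 counts (20.2 FPKM) in PBS DCs, a 2.19-fold higher level (interval 2.06 to 2.32). Its T cell libraries held 116 counts with treatment and 53 with PBS, a 2.17-fold higher level (interval 1.55 to 3.06). Ifi208 had 1766 counts (18.2 FPKM) in treated T cells and 725 counts (7.39 FPKM) in PBS T cells, a 2.41-fold higher level (interval 2.21 to 2.64). In DCs, Ifi208 had 353 counts with treatment and 1 with PBS, a ratio of 623-fold with an interval from 111-fold to 24670-fold. Ifi214 had 1546 counts (10.3 FPKM) in treated T cells and 179 counts (1.18 FPKM) in PBS T cells, an 8.56-fold higher level (interval 7.33 to 10.05), and 5 counts in each DC library. Ifi202b, whose protein has no pyrin domain and antagonises AIM2, was at 0 in all 4 libraries. Every PYHIN gene that was tested and called, in either cell type, was called higher. Over all genes tested, 30.2% were called higher and 41.8% lower in DCs, and 18.3% higher and 25.4% lower in T cells. Several PYHIN genes share sequence, so their calls are not independent of each other.

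Reads of close relatives can be assigned to the wrong copy, and the labels do not say how such reads were treated. The overlap was measured as the share of 50-base stretches in a gene's GENCODE M21 transcripts that another PYHIN gene also holds. It was 72.8% for Ifi211, of which Ifi205 alone shared 44.7%, and 33.4% for Ifi209, all shared with Ifi214. It was 19.1% for Ifi204, 17.3% for Mndal, 15.8% for Ifi206 and 15.6% for Ifi213. Ifi207, Ifi203 and Aim2 were nearly or wholly unique, at 4.46%, 3.87% and 0%. Values of Ifi211 and Ifi209 are therefore the least certain. Ifi211 summed with Ifi205 had a log2 ratio of 0.98 in DCs and 0.55 in T cells and was still not called. Ifi209 summed with Ifi214 had 0.84 in DCs and 1.31 in T cells, where the sum was called higher.

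The members lie within 592 kb of chromosome 1, which holds 12 listed genes: the 9 members, Ifi208, Ifi214 and Cadm3. The 10 nearest listed genes outside the family on each side are mostly olfactory receptor genes, and 1 of these 20 was tested in each cell type. In DCs it was the olfactory receptor gene Olfr432, called higher with 93 counts with treatment and 46 with PBS. In T cells it was Ackr1, an atypical chemokine receptor, called higher with 136 counts with treatment and 9 with PBS. The cluster thus offered almost no expressed neighbours to set beside it.

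Genes that act with the members were read from lists. The AIM2 inflammasome and pyroptosis genes had 4 called higher, 6 lower and 2 neither among 12 in DCs, where their median log2 ratio was -0.78. Pycard, which encodes the adaptor ASC, had 4084 counts in treated DCs and 3111 in PBS DCs, a log2 ratio of 1.21. Casp1, the protease of the complex, had 66 counts in treated DCs and 1758 in PBS DCs, a log2 ratio of -3.92, and Il1b, one of its substrates, had a log2 ratio of 0.47. Il18, the other cytokine substrate, had a log2 ratio of -1.77. These counts stand beside 30.2% higher and 41.8% lower over all genes tested in DCs. In T cells 2 of 11 were higher, 1 lower and 8 neither, with a median of 0.04. Over all genes tested in T cells, 18.3% were called higher and 25.4% lower. Irf1, a transcription factor of interferon responses placed in this list, had log2 ratios of 1.77 in DCs and 0.89 in T cells. In T cells Casp1 had a log2 ratio of 1.37, Il18 one of 2.41, Pycard one of -0.07 and Il1b one of -1.69.

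Genes of the cGAS-STING pathway, another route of cytosolic DNA sensing, had 4 higher, 3 lower and 3 neither of 10 tested in DCs and 3 higher, 2 lower and 5 neither of 10 in T cells. The counts of this list and of those below stand beside 30.2% higher and 41.8% lower over all genes tested in DCs. In T cells these shares were 18.3% higher and 25.4% lower. Cgas, which makes the second messenger that STING binds, was chosen after its values were seen and had log2 ratios of 1.37 in DCs and 4.10 in T cells. Sting1 had ratios of -0.57 in DCs and 0.15 in T cells, and Irf3, the transcription factor downstream, -0.42 and 0.40. Ddx41, a helicase reported to sense DNA, had 226 counts in treated DCs and 3616 in PBS DCs, a log2 ratio of -3.18, and a log2 ratio of -0.14 in T cells. Enzymes that degrade or bind stray nucleic acid had 2 higher, 2 lower and 5 neither of 9 in DCs and 2 higher, 0 lower and 7 neither of 9 in T cells. Samhd1, which hydrolyses deoxynucleotides, had log2 ratios of 0.08 in DCs and 0.85 in T cells. Banf1, which binds DNA, had -0.98 and -0.35, and Rnaseh2c, a subunit of ribonuclease H2, 0.02 in both. Inflammasome sensors other than Aim2 had 5 higher and 3 lower of 10 in DCs and 3 higher and 2 lower of 5 in T cells. Zbp1, whose protein binds Z-form RNA and DNA, had log2 ratios of -0.48 in DCs and 1.33 in T cells. Nlrp3 had -1.13 in DCs. In T cells it had 78 counts with treatment and 0 with PBS. With PBS set to 3 counts its log2 ratio there was 4.69, with a lower limit of 4.36. Naip2, a receptor for bacterial secretion proteins, had 0.70 in DCs and 1.06 in T cells.

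Genes of interferon receptor signalling had 4 higher, 3 lower and 7 neither of 14 in DCs and 3 higher, 0 lower and 11 neither of 14 in T cells. Over all genes tested, 30.2% were higher and 41.8% lower in DCs, and 18.3% higher and 25.4% lower in T cells. Irf7, which amplifies type I interferon, had log2 ratios of 2.17 in DCs and 2.09 in T cells. Ifngr1, a chain of the interferon gamma receptor, had -2.82 in DCs and 0.53 in T cells, and the kinase gene Jak1 had 0.08 and 0.46. Interferon-stimulated genes outside the cluster were called higher for 23, lower for 7 and neither for 8 among 38 in DCs, where the median was 1.55. In T cells 30 among 37 were higher, 0 lower and 7 neither, and the median was 1.63. Bst2, which tethers budding virus, had log2 ratios of 1.13 in DCs and 1.04 in T cells, and Ifi27l2a 3.35 and 1.64. Lgals3bp, a secreted glycoprotein, had -2.82 in DCs and 0.74 in T cells. The members, with 5 higher and 0 lower of 9 in DCs and 4 higher and 0 lower of 8 in T cells, are set beside these counts as a description.

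**Figure D5:**
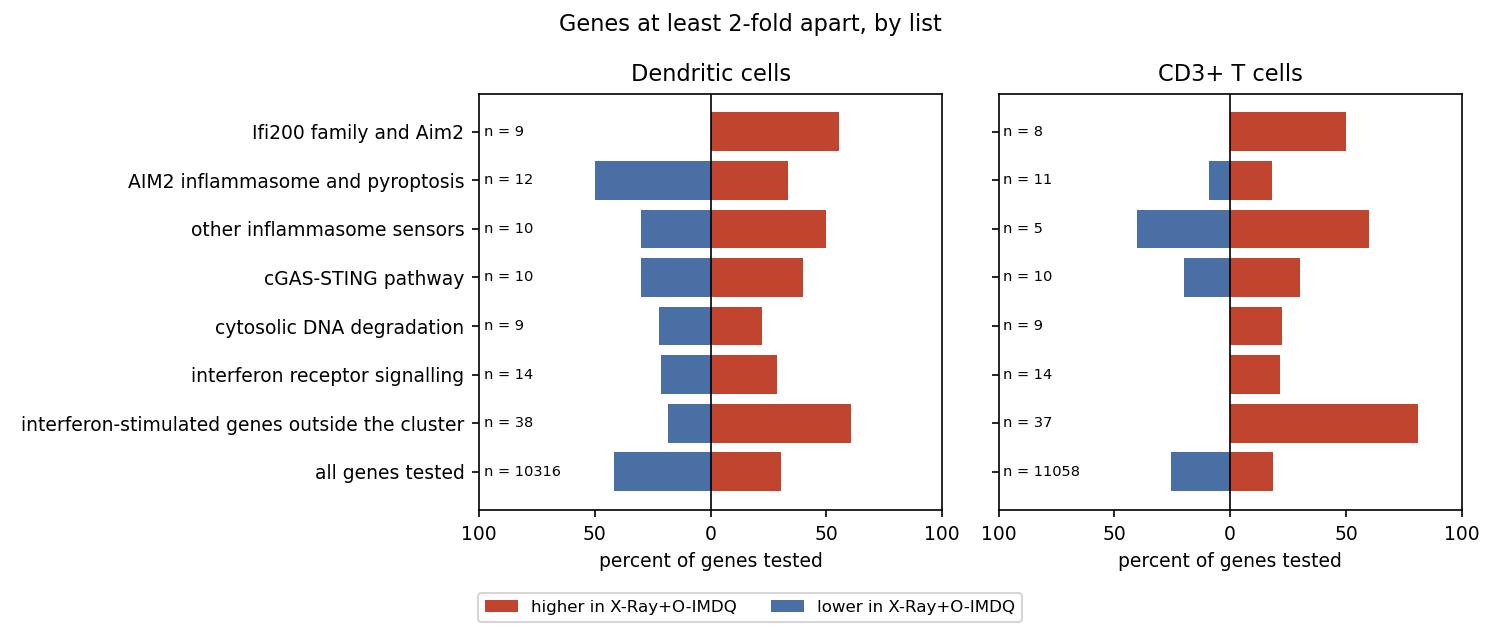
Percent of tested genes called at least 2-fold higher (red, to the right) or lower (blue, to the left) in X-Ray+O-IMDQ libraries, for each list (y axis), in DCs and T cells; n is the number tested. The members have no bar to the left in either cell type, and all genes tested have 30.2% higher and 41.8% lower in DCs and 18.3% higher and 25.4% lower in T cells.

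The genes whose pattern over the 4 libraries was most like the members' summed FPKM were ranked by Euclidean distance between centred log2(FPKM + 0.1) values, among 11964 genes. They were Rffl, Rbm6, Bst2, Arl6ip6 and Rnf40, at distances from 0.07 to 0.20. Of these, Bst2, the interferon-inducible antiviral protein tetherin, had 450 FPKM in treated DCs and 214 FPKM in PBS DCs, and 359 FPKM in treated T cells and 171 FPKM in PBS T cells. The 5 nearest to Aim2 alone, among 11972 genes, were Ndufb7, Zfp53, Cdc123, Abr and Slc25a12, at distances from 0.07 to 0.14. With 4 libraries such likeness is a description of these values.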

How the data were processed

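RNA of 4 libraries was analysed, 1 per group. The labels credit RNA extraction, library construction and sequencing to BGI. Build GRCm39 is named in the submitters' processing notes, as are the tools RSEM 1.2.12, HISAT2 2.0.4, R 3.3.1 and DESeq2 1.24.0, but no role or order is given. The deposited read counts are whole numbers per gene, and the deposited FPKM can be recomputed from those counts, the gene lengths and the library totals to a relative error of at most 2.04e-07. The listed gene length in bases is deposited in the same tables, and other columns hold annotation. Columns were tied to samples through the read file names that the labels' descriptions give, whose numbers differ from the titles' in 3 of 4 cases. Another 2 libraries, with 4 columns named like those of the PBS libraries, matched no sample and were not used here. No label gives their group, and whether they are further PBS libraries was not tested. The lack of replicates therefore holds for the libraries tied to samples.

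Counts were scaled with TMM (edgeR 4.0.16, R 4.3.3) within each cell type. A library at 0 was set to 3 counts for a bound, and 51 listed genes without a symbol were left out of the tests. The exact conditional binomial (Clopper-Pearson) intervals and Poisson intervals came from scipy 1.17.1. The ratio step was tested on simulated data. Alternatives were other scalings (total counts, DESeq2 1.42.0 size factors, upper quartile, TMM without ribosomal, mitochondrial and receptor genes), centring, log2(CPM + 1), other count filters and fold thresholds. Alternatives by gene length, by paralog sums and over all PYHIN genes were added after the data were seen. Promoters came from RefSeq (GRCm38.p6) and transcripts from GENCODE M21.

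The members and lists were chosen with earlier results of these data known. Named were all members, other PYHIN genes, and from each pathway list the 3 most abundant genes and those called in opposite directions in the cell types. The marker genes named were chosen after their values were seen.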

Additional observations from a re-analysis of the deposited data

Results flagged for a closer look

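No member was called in opposite directions in the 2 cell types. Among genes of the pathway lists, 11 were called in one direction in DCs and in the other in T cells. The difference was not tested, since each group has 1 library tied to a sample. Over all genes tested, 30.2% were called higher and 41.8% lower in DCs, and 18.3% higher and 25.4% lower in T cells. The share of all genes called in opposite directions was not counted, so these genes and the marker genes below are listed as a description. The log2 ratio in T cells minus that in DCs was 5.28 for Casp1, 4.18 for Il18, 5.82 for Nlrp3 and -4.26 for Naip5, all inflammasome genes. It was 7.27 for Stim1, -9.86 for Trim32 and 4.60 for Dnase1l3, of the DNA-sensing and DNA-degrading lists. It was 5.44 for Cmpk2, 3.17 for Ifi35, 6.05 for Oas1a and 6.02 for Oas1g, all interferon-stimulated. Among genes of the marker lists, 9 were called in opposite directions. The difference was -5.94 for Flt3 and -8.82 for Zbtb46, conventional DC markers, and 8.98 for Cd209a, -3.84 for Itgam and 7.23 for Clec4a1, of the cDC2 list. It was -6.43 for Tcf4, a plasmacytoid DC marker, 5.42 for the B cell marker Cd79b, and -4.68 for Col1a1 and -8.17 for Col1a2, collagen genes of fibroblasts. Library pairs with 0 counts on one side, as for Stim1, Trim32, Nlrp3, Oas1g, Cmpk2, Flt3, Zbtb46 and Clec4a1, enter at a bound of 3 counts, so these differences depend on that floor.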

How the results depend on the processing

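The summed level of the members was called higher in both cell types under every alternative but the 4-fold threshold, with log2 ratios of 1.51 in DCs and 1.13 in T cells against which that threshold was set. Under the other alternatives it ranged from 1.45 to 1.87 in DCs and from 1.03 to 1.25 in T cells. No alternative called a member lower. In DCs the count of members called higher was 5, and 8 after centring on the median of all genes, 8 after centring within groups of like gene length, 8 at 1.5-fold and 3 at 4-fold. It was 4 when both libraries needed 20 counts or more. The share of all tested genes called higher in DCs also moved, being 30.2%, 35.1%, 34.9%, 36%, 18.6% and 32.9% in that order. In T cells the count of members was 4, and 6 at 1.5-fold, 1 at 4-fold and 3 when both libraries needed 20 counts or more. The shares of all tested genes there were 18.3%, 27.1%, 9.07% and 15.5% in that order. The DC median of 1.96 became 2.31 after centring on the median of all genes and 1.40 when both libraries needed 20 counts or more. The DC log2 ratio of Aim2 changed sign to 0.30 after centring on the median of all genes and to 0.80 after centring within groups of like gene length. The cause of these changes was not tested. Of 276 single gene values under alternatives, 253 kept their direction and side of the threshold, 12 gained a call, 9 lost one and 2 changed sign. Part of the 253 was fixed by design. A changed count filter leaves the value and call of each retained gene as they were, and a changed fold threshold cannot alter direction. Centring by gene length was not applied to the sums. Counts split between close copies limit Ifi211 and Ifi209 most, and the size of the ratio is least certain for Ifi206 in DCs and Ifi204 in T cells, with 0 and 2 counts in PBS. No paired analysis was made and no library was left out, because each group has 1 library tied to a sample. The titles give the compared groups different replicate numbers, while the read file names of both T cell groups carry the number 1.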
